A study of Mus musculus with 6 samples.

Results

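The proteins of the cytosolic ribosome were followed at the mRNA level in embryonic mouse submandibular gland with and without blebbistatin. Members were the genes of the deposited gene table whose symbol is Rpl or Rps with a number, one of the stalk proteins Rplp0, Rplp1 and Rplp2, or Rpsa. The S6 kinases (Rps6k symbols) and pseudogenes were left out. The rule found 84 of 24067 genes, 51 of the large subunit and 33 of the small subunit. Of these, 77 encode the core proteins of the ribosome (46 large, 31 small) and 7 are close copies of a core gene. The copies are Rpl3l, Rpl7l1, Rpl10l, Rpl22l1, Rpl39l, Rps4l and Rps27l. The only annotated transcript of Rps4l carries a non-coding RefSeq label. Among the ribosomal proteins that carry other symbols, Fau, Rpl36al and Gnb2l1 are described beside the members.

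Glands came from ICR embryos at E13, an outbred mouse strain at the stage when the gland begins to branch. There were 3 control libraries and 3 libraries from glands that received blebbistatin, an inhibitor of the ATPase of myosin II, the motor that contracts actin filaments outside muscle. The sources used here do not give the concentration, the exposure time, what the controls received, or how many glands were pooled. The series title names epithelial buds, while the tissue label of the samples names the gland. The labels do not tie the libraries of a group to different litters or cultures. A p-value here thus sets the difference between groups against the spread of libraries within a group, a spread that may be technical.

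A ribosome holds a small subunit, which threads and decodes the mRNA, and a large subunit, which joins amino acids and releases the chain through an exit tunnel. One copy of nearly every ribosomal protein goes into each ribosome, so cells keep the mRNAs of both subunits at high and roughly matched levels. Most of these mRNAs begin with a run of pyrimidines at the cap, the 5′ terminal oligopyrimidine tract, through which mTOR signalling controls their translation, a layer that RNA abundance does not report. Growing embryonic epithelium makes ribosomes at a high rate, and mutations in several of these genes cause Diamond-Blackfan anaemia in humans.

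Values are FPKM, fragments scaled by transcript length and by the depth of the library, so levels can be set side by side between genes. The depth of the libraries, estimated from the value that 1 fragment is worth in genes with low values, was 27500000 to 28700000 fragments in 5 libraries and 33600000 in Control replicate 2. Between 11453 and 11592 genes reached 1 FPKM. The 8 epithelial markers (such as Epcam and Cdh1) summed to 1397 to 1748 FPKM in controls and 1326 to 1714 FPKM under blebbistatin. Of 10 mesenchymal markers, Vim was the abundant one, at 276 to 370 FPKM. The 9 others were all highest in Control replicate 1, where they summed to 21.5 FPKM (Col3a1 at 7.26), against 4.38 to 9.24 FPKM in the other libraries. The 5 endothelial and the 5 neuronal markers all had means under 1 FPKM. Haemoglobin and other erythroid markers varied most: the 8 genes summed to 224, 1.94 and 252 FPKM in Control replicates 1, 2 and 3 and to 1.10, 6.76 and 70.7 FPKM in Blebbistatin replicates 1, 2 and 3.

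Ribosomal protein mRNAs were among the most abundant in every library. Together the 84 members took up 31.8%, 26.7% and 29.6% of the summed FPKM in the control libraries and 28.6%, 29.3% and 30.4% in the blebbistatin libraries. Control replicate 1 was highest and Control replicate 2 lowest, and the blebbistatin libraries lay between them. The large subunit accounted for 16.2% ± 1.28 of the summed FPKM in controls and 16.3% ± 0.603 under blebbistatin (SD, n = 3 each). The small subunit accounted for 13.1% ± 1.30 and 13.1% ± 0.359. The ratio of summed large-subunit FPKM to summed small-subunit FPKM was 1.21, 1.26 and 1.23 in controls and 1.21, 1.27 and 1.25 under blebbistatin, so that it overlapped between groups. Of the 87 genes with a mean of at least 1000 FPKM, 64 were members.

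**Figure D1:**
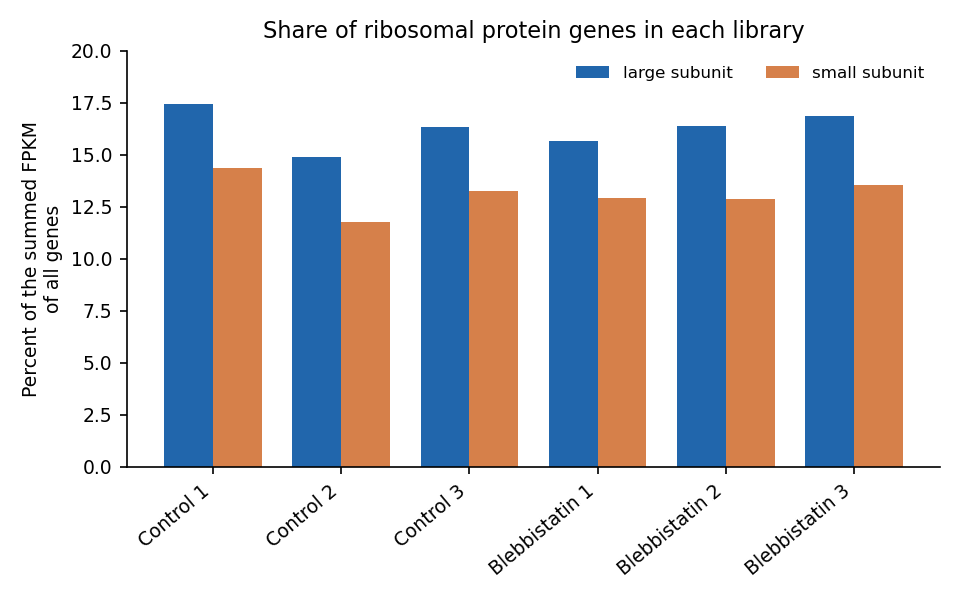
Percent of the summed FPKM of all genes (vertical axis) that fell on large-subunit (blue) and small-subunit (orange) members in each of the 6 libraries; bars start at 0. Large-subunit bars range from 14.9% in Control 2 to 17.5% in Control 1, and the 3 blebbistatin libraries sit inside that range for both subunits.

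Within each subunit the core mRNAs spanned a wide range even after scaling by length. Large-subunit core members other than 3 described below (Rpl26, Rpl30 and Rpl34) had means of 289 to 6181 FPKM with a median of 1921. The small-subunit core members other than Rps27 had means of 192 to 4943 FPKM with a median of 2356. The 3 highest of the large subunit were Rplp1, Rpl41 and Rpl32, and those of the small subunit Rps12, Rps18 and Rps26. Rps15a, a small-subunit core protein, was the lowest at 152 to 221 FPKM. Its only annotated transcript is 5134 nt long, against a median of 615 nt for small-subunit members, and FPKM divides by that length.

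No ribosomal protein mRNA passed the test between blebbistatin and control. In the limma fit over all genes, 0 of 48 large-subunit and 0 of 33 small-subunit members tested had an adjusted p under 0.05, while 0.0780% of all 11540 genes tested did (9 genes). At an unadjusted p under 0.05 there was 1 member, Rps27, of 81 (9.36% of all genes tested), and in 0 of 81 members were the 2 groups without overlap (14.3% of all genes tested, 7.48% higher and 6.80% lower). The median log2 fold change, blebbistatin minus control on the log2(FPKM + 1) scale, was 0.035 for the large subunit, 0.031 for the small subunit and 0.015 for all genes tested. The 3 other members, Rpl3l, Rpl10l and Rpl39l, were under the minimum of 1 FPKM. In bulk RNA, fewer cells of a type and less RNA per cell cannot be told apart.

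The intervals give the size of change that these libraries could show. The median standard error of a member's log2 fold change was 0.15. For 77 of 81 members (95.06%) the 95% interval of the fold change lay inside 1.5-fold in both directions, and for 80 inside a log2 change of 1. Of all 11540 genes tested, 10057 (87.15%) lay inside 1.5-fold and 11228 inside a log2 change of 1. The 4 members whose interval was wider than 1.5-fold were Rps27, Rpl34, Rpl26 and Rps14. Of the members, 61 of 81 (75.3%) had a higher mean under blebbistatin, against 55.2% of all genes tested, a count that rested on single libraries and on the scaling: it came to 79, 21 and 37 when Control replicate 1, 2 or 3 was left out, and to 34 under quantile normalization. Leaving out Control replicate 2 gave medians of -0.048 (large) and -0.06 (small), and leaving out Control replicate 1 gave 0.148 and 0.153.

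**Figure D2:**
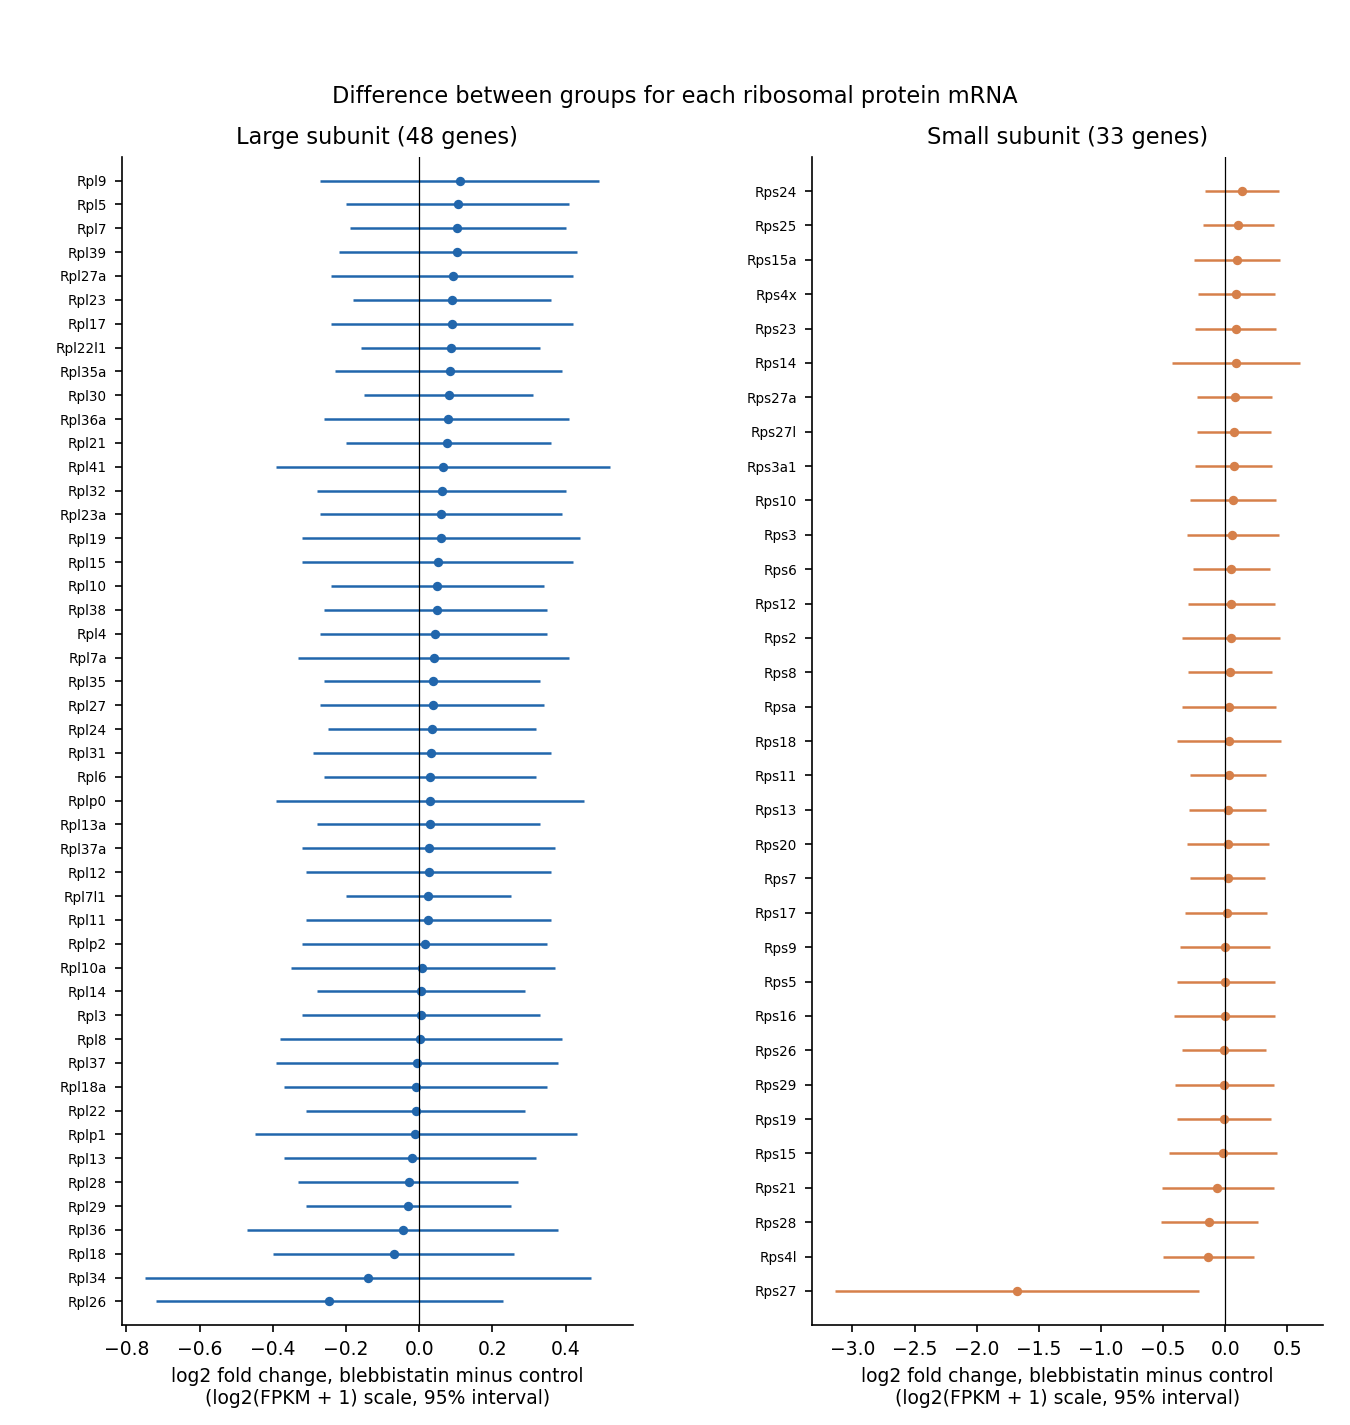
Log2 fold change, blebbistatin minus control (horizontal axis, log2(FPKM + 1) scale), of each tested member of the large subunit (left, 48 genes) and small subunit (right, 33 genes); points are limma estimates, lines their 95% intervals, and the 2 panels have different horizontal scales. All estimates but those of Rps27 (-1.68) and Rpl26 (-0.25) lie between -0.14 and 0.14, and Rps27 alone has an interval that leaves out 0.

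In the large subunit, the P stalk, which recruits elongation factors to the ribosome, was among the most abundant parts and did not pass the test. Rplp1, an acidic stalk protein, was at 7990, 4986 and 5825 FPKM in Control replicates 1, 2 and 3 and at 5958, 5958 and 6370 FPKM in Blebbistatin replicates 1, 2 and 3 (log2 fold change -0.01, SE 0.19). Its partner Rplp2 was at 3950, 3062 and 3393 FPKM in controls and at 3247, 3581 and 3643 FPKM under blebbistatin. Rplp0, the base on which they sit, was at 4172, 2617 and 3000 FPKM in controls and at 3299, 3261 and 3231 FPKM under blebbistatin. For all 3 the control libraries enclosed the blebbistatin libraries, with Control replicate 1 on top and Control replicate 2 at the bottom.

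Rpl5 and Rpl11 form a particle with the 5S rRNA that also restrains Mdm2, the ligase of p53, when ribosome assembly stalls. Rpl5 was at 931, 716 and 798 FPKM in controls and at 799, 884 and 937 FPKM under blebbistatin (log2 fold change 0.10, SE 0.13). Rpl11 stood at 2851, 2091 and 2301 FPKM against 2370, 2416 and 2515 FPKM. Both groups overlapped in both genes. Exons of Rpl5 share 964 bases with Fam69a on the opposite strand, and Rpl31, Rpl32, Rpl35, Rps25 and Rps27a also overlap a gene on the other strand. The sources used here do not say whether strand was used in counting.

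Around the exit tunnel, 0 of 9 genes passed the test, while 0.0780% of all genes tested did. A higher mean under blebbistatin was found in 7 of the 9 (77.8%), against 75.3% of members and 55.2% of all genes tested. Rpl26, of this list, was lower alone and higher when summed with the second record described below. Rpl39, a small protein in the tunnel wall, was at 2673, 2112 and 2442 FPKM in controls and at 2372, 2552 and 2814 FPKM under blebbistatin (log2 fold change 0.10, SE 0.14). Rpl17 and Rpl23a, also at the tunnel, had log2 fold changes of 0.09 and 0.06 and overlapping groups. Apart from Rpl26, the largest difference in the subunit was that of Rpl34, and next came Rpl9 with a difference of 0.11 in log2 (SE 0.17, adjusted p = 0.984). Rpl5, given above, and Rpl7 (SE 0.13) each stood at 0.10. Rpl41, which encodes one of the shortest proteins of the mammalian cell, was at 6284, 3874 and 4243 FPKM in controls and at 4811, 5194 and 4740 FPKM under blebbistatin. Its 3 blebbistatin libraries lay close together inside a control range that was wide.

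In the small subunit, 0 of 6 genes of the mRNA channel passed the test, while 0.0780% of all genes tested did. Rps28, which lies at the mRNA exit, was at 3676, 2397 and 2976 FPKM in controls and at 2758, 2598 and 2781 FPKM under blebbistatin (log2 fold change -0.13, SE 0.17, adjusted p = 0.981). Rps14, at the platform of the subunit, had the widest spread of the core genes counted once: 3730, 1932 and 2777 FPKM in controls against 2960, 2734 and 2939 FPKM under blebbistatin (log2 fold change 0.08, 95% interval -0.43 to 0.60). Rps2 and Rps3, which line the mRNA entry, had log2 fold changes of 0.05 and 0.06. In each of these 4 genes the blebbistatin values lay within the control range.

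Rps24 had the largest positive difference of any member. It was at 1688, 1419 and 1532 FPKM in controls and at 1532, 1780 and 1784 FPKM under blebbistatin. The difference was 0.14 in log2 (SE 0.13, adjusted p = 0.941), and Control replicate 1 was above Blebbistatin replicate 1. Rps25, which serves initiation at some viral and cellular internal ribosome entry sites, was at 1519, 1433 and 1420 FPKM in controls and at 1398, 1694 and 1619 FPKM under blebbistatin (log2 fold change 0.10, SE 0.12). One blebbistatin library was the lowest of the 6 and the other two the highest. The most abundant mRNA of the subunit, Rps12, had a log2 fold change of 0.05, while Rps18 had 0.03 and Rps26 -0.01.

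Of the genes mutated in Diamond-Blackfan anaemia, 0 of 17 passed the test, while 0.0780% of all genes tested did. The mean was higher in 10 (58.8%, against 75.3% of members and 55.2% of all genes tested) and lower in 7. Among the lower were Rps27 (log2 fold change -1.68) and Rpl26 (-0.25), which share their exons with second records described below. Summed with those records they were higher, at 0.13 and 0.08, so the count depends on how these genes are listed. The median log2 fold change was 0.019, against 0.015 for all genes tested.

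The 1 member that stood apart, Rps27, shared its exons with a second record. Rps27 encodes a zinc-binding protein of the small subunit (mm10 3:90212667-90213648, minus strand). It was listed at 44.6, 6.05 and 43.6 FPKM in Control replicates 1, 2 and 3 and at 7.83, 7.14 and 5.11 FPKM in the blebbistatin libraries. Control replicates 1 and 3 were high, and Control replicate 2 lay among the blebbistatin libraries. The erythroid sums were likewise high in Control replicates 1 and 3 and low in Control replicate 2. In Blebbistatin replicate 3, where the Rps27 total was lowest, the erythroid sum was 70.7 FPKM. The 346-nt transcript of Rps27, described below, was at 0.185 FPKM there, against 0.0557 and 0.0532 FPKM in Blebbistatin replicates 1 and 2. The part of the erythroid genes in the Rps27 values was not tested. The log2 fold change was -1.68 (SE 0.64, 95% interval -3.14 to -0.21, unadjusted p = 0.03, adjusted p = 0.426). Without Control replicate 2 it was -2.57 with an adjusted p of 0.00686, which was the only fit in which a member passed. Beside it, the deposited annotation places Rps27rt on 345 of the same exon bases of chromosome 3, on the same strand, whereas the RefSeq table for GRCm38.p6 has Rps27rt on chromosome 9.

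Rps27rt was listed at 3942, 2879 and 3093 FPKM in controls and at 3576, 3606 and 3641 FPKM under blebbistatin. Rps27 thus held 0.14% to 1.39% of the FPKM of the 2 records together. Their sum had a log2 fold change of 0.13 (SE 0.15, 95% interval -0.22 to 0.48, adjusted p = 0.973), the opposite sign to that of Rps27 alone. In the GENCODE M21 transcripts the coding sequences of the 2 genes are 255 nt long and differ at 0 positions, so no base is in capitals in the sequence, which is shown because a read from inside it cannot be assigned to one of the 2 genes:
Rps27 and Rps27rt coding sequence: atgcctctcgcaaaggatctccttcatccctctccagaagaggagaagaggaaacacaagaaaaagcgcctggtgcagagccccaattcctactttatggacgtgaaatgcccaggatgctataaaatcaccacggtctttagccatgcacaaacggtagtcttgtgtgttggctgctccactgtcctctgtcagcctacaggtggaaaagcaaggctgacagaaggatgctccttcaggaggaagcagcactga

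The difference within Rps27 lay in 1 of its 2 annotated transcripts. The 346-nt transcript was at 36.7, 0.0458 and 36.1 FPKM in controls and at 0.0557, 0.0532 and 0.185 FPKM under blebbistatin. It made up 82.3%, 0.757% and 82.6% of the Rps27 FPKM in controls and 0.711%, 0.745% and 3.61% under blebbistatin. The 575-nt transcript, whose first exon runs further into the first intron, was the rest. It carries a non-coding RefSeq label. In Control replicate 2 and the blebbistatin libraries, nearly all of the FPKM listed for Rps27 thus lay on a non-coding record. Rps27rt repeats all but 1 base of the short transcript.

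The same layout was found for 3 large-subunit genes, with most of the FPKM on the second record. Rpl34 (mm10 3:130726827-130730398) shared 413 exon bases with Rpl34-ps1 and held 5.90% to 11.5% of their summed FPKM. For Rpl26 (11:68901566-68904534) the second record was Gm15772, with 520 shared exon bases, and the member held 1.47% to 2.46%. Rpl30 (15:34440508-34443276) and Gm12191 shared 476 exon bases, and Rpl30 held 2.28% to 2.63%. In the RefSeq table the 3 second records lie on chromosomes 6, 5 and 11. It lists Gm15772 and Gm12191 as transcribed pseudogenes.

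Taken alone, Rpl26 was at 82.8, 51.7 and 50.5 FPKM in controls and at 44.5, 62.2 and 46.3 FPKM under blebbistatin (log2 fold change -0.25, SE 0.21, adjusted p = 0.899). Summed with Gm15772 it was at 3370, 2490 and 2722 FPKM against 2759, 3129 and 3142 FPKM, with a difference of 0.08 in log2 (SE 0.15, adjusted p = 0.989). Rpl34 alone had a log2 fold change of -0.14 (SE 0.27), with 341, 163 and 242 FPKM in controls and 248, 165 and 246 FPKM under blebbistatin. Summed with Rpl34-ps1 it had 0.04 (SE 0.14). Rpl30 had 0.08 either way. With the 4 sums in place, the smallest adjusted p of any member was 0.941, and the 4 summed genes had means of 1789 to 3475 FPKM over the 6 libraries, within the range of the other core members.

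**Figure D3:**
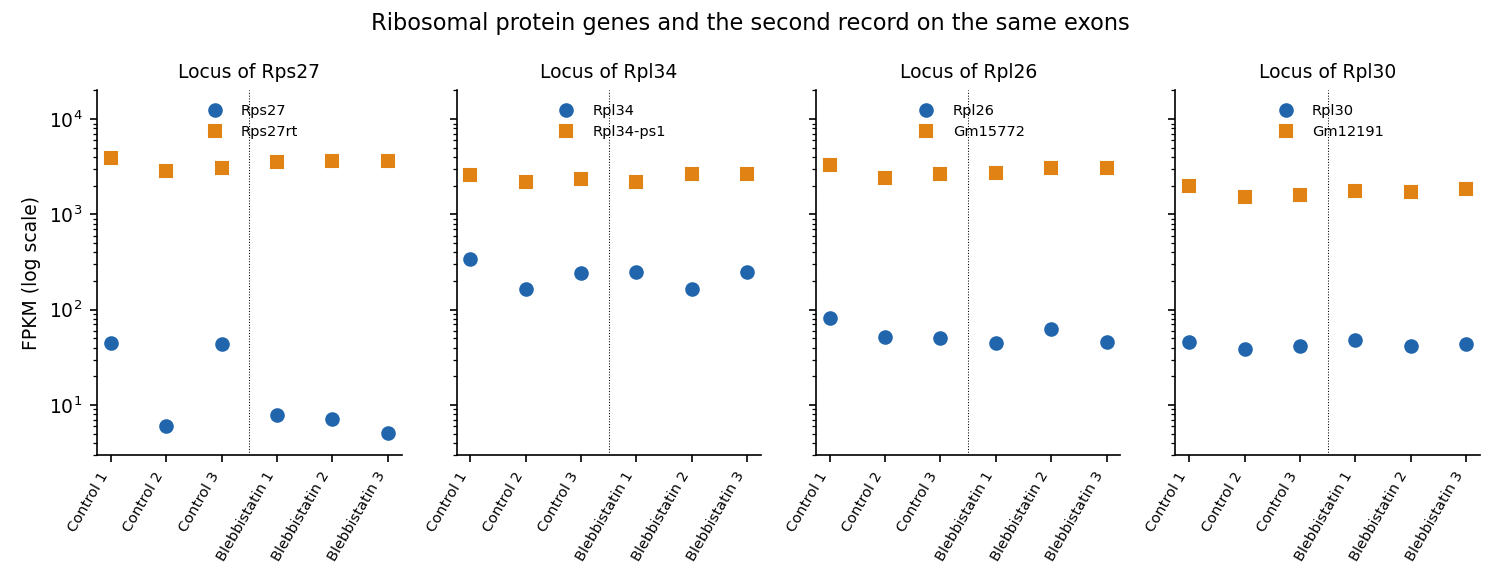
FPKM on a log axis (vertical) of 4 members (blue circles) and of the second record annotated on their exons (orange squares) in the 6 libraries (horizontal; the dotted line parts controls from blebbistatin). The second record carries most of the FPKM in every panel, and Rps27 is at 44.6 and 43.6 FPKM in 2 of the control libraries and at 5.11 to 7.83 FPKM in the 4 others.

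Near-identical sequence elsewhere in the genome touched most members. By alignment of GENCODE M21 transcripts, 74 of 84 members had at least 1 annotated pseudogene at 95% identity or more over at least 200 nt, with a median of 4 and a maximum of 60 for Rpl21. The sources used here do not say how fragments with several placements were counted, so the level of each such gene is uncertain to that extent.

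Most members shared one order of the libraries. Control replicate 1 was the highest of the 6 libraries in 60 of 81 members (74.1%, against 27.0% of all genes tested), and Control replicate 2 the lowest in 62 (76.5%, against 11.8%). For the large subunit, the median deviation from a gene's own mean over the 6 libraries, in log2 units, was 0.19, -0.18 and -0.07 in the controls and -0.05, 0.05 and 0.07 under blebbistatin. For the small subunit it was 0.24, -0.22 and -0.08 in the controls and -0.04, 0.01 and 0.04 under blebbistatin. The spread was thus within the control group, and the blebbistatin libraries lay inside the control range in 57 of 81 members (70.4%, against 27.7% of all genes tested). The median coefficient of variation of the members was 14.6% among controls and 5.66% among blebbistatin libraries, and the SD of log2 values was larger in controls for 68 of 81 (84.0%, against 64.5%).

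**Figure D4:**
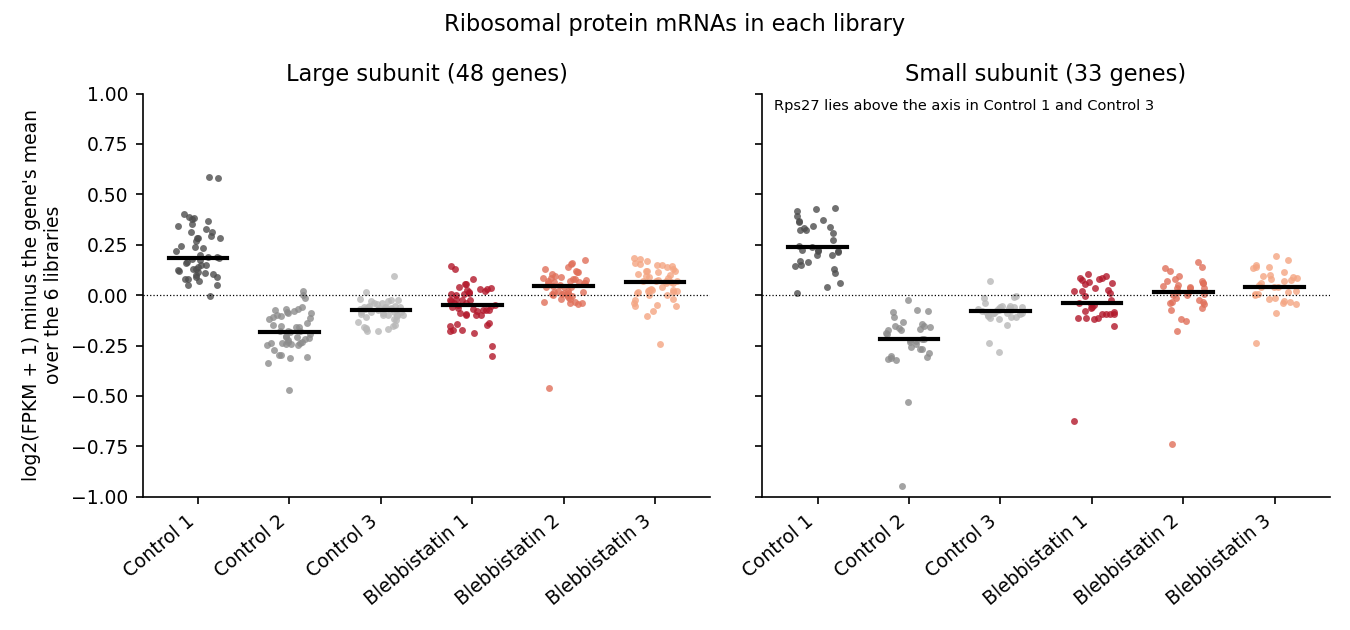
Log2(FPKM + 1) of each tested member minus its mean over the 6 libraries (vertical axis) in each library (horizontal axis), for the large (48 genes) and small (33 genes) subunit; points are genes and black bars are medians. In both panels Control 1 is highest and Control 2 lowest, and the blebbistatin libraries lie between them.

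The members moved together across libraries. Among the 73 core members without the 4 that share exons with a second record, the median Pearson correlation over the 6 libraries was 0.84 across 2628 pairs, given as a description since all pairs share the same libraries and scaling. Rpl4, a protein of the exit tunnel, followed the common pattern least (r = 0.19 with the mean of the members), and Rps25 came next (r = 0.42). Rpl4 was at 2202, 2215 and 2119 FPKM in controls and at 1937, 2468 and 2358 FPKM under blebbistatin. Of all genes that are not members, the 5 closest to the member mean were Cd320 (r = 0.992), Mrpl33 (0.981), Hddc2 (0.98), Polr1c (0.976) and 2410015M20Rik (0.974), again over 6 libraries. Mrpl33 belongs to the mitochondrial ribosome and Polr1c is a subunit of RNA polymerases I and III. Control replicate 2 was the lowest library in 15.8% of 76 mitochondrial ribosomal proteins and in 13.3% of 15 genes of RNA polymerase I. That compared with 76.5% of members and 11.8% of all genes tested. Control replicate 1 was the highest in 68.4% and 26.7% of these lists, against 74.1% of members and 27.0% of all genes tested.

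Transcript length moved with part of this library order, that of Control replicate 1 and, in part, that of Control replicate 2. The tested members had a median annotated length of 703 nt against 2800 nt for all genes tested, and 63 of 81 were 1000 nt or shorter. In the 859 other genes of 301 to 1000 nt, the median deviation was 0.21, -0.11 and -0.12 in the controls and 0.05, 0.03 and -0.05 under blebbistatin. Their Control replicate 1 was therefore as high as that of the members, Control replicate 2 was lower by less, Control replicate 3 was the lowest library, and Blebbistatin replicates 1 and 3 stood in the reverse order. Over all genes tested, the Spearman correlation of deviation with length was -0.50, 0.44 and 0.20 in Control replicates 1, 2 and 3, given as descriptions across genes. Among the 81 members it was weaker in Control replicates 1 and 2 and of the other sign in Control replicate 3, at -0.19, 0.16 and -0.28. The 4 members of over 1500 and up to 2000 nt had medians of 0.32 in Control replicate 1 and -0.26 in Control replicate 2, as far out as those of the short members.

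Removing a smooth trend on length from each library left the members at 0.03, -0.08 and 0.02 in the controls and -0.08, 0.01 and 0.10 under blebbistatin. The distance between the highest and lowest library medians went from 0.42 to 0.18 for the members and from 0.32 to 0.02 for the other genes of 301 to 1000 nt. Between the groups, the median log2 fold change after removal was 0.023 for the large subunit (0.035 before), 0.014 for the small subunit (0.031 before) and 0.003 for all genes tested (0.015 before), with 0 members past the threshold. The Spearman correlation of log2 fold change with length, across genes, was 0.03 in the large subunit, 0.46 in the small subunit and 0.06 over all genes tested. The erythroid sums given above were high in Control replicates 1 and 3 and low in Control replicate 2, an order that differs from that of the members in Control replicate 3. The mesenchymal markers other than Vim were, like the members, highest in Control replicate 1, but they were lowest in Blebbistatin replicate 1. The part of either marker list in the library order of the members was not tested.

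**Figure D5:**
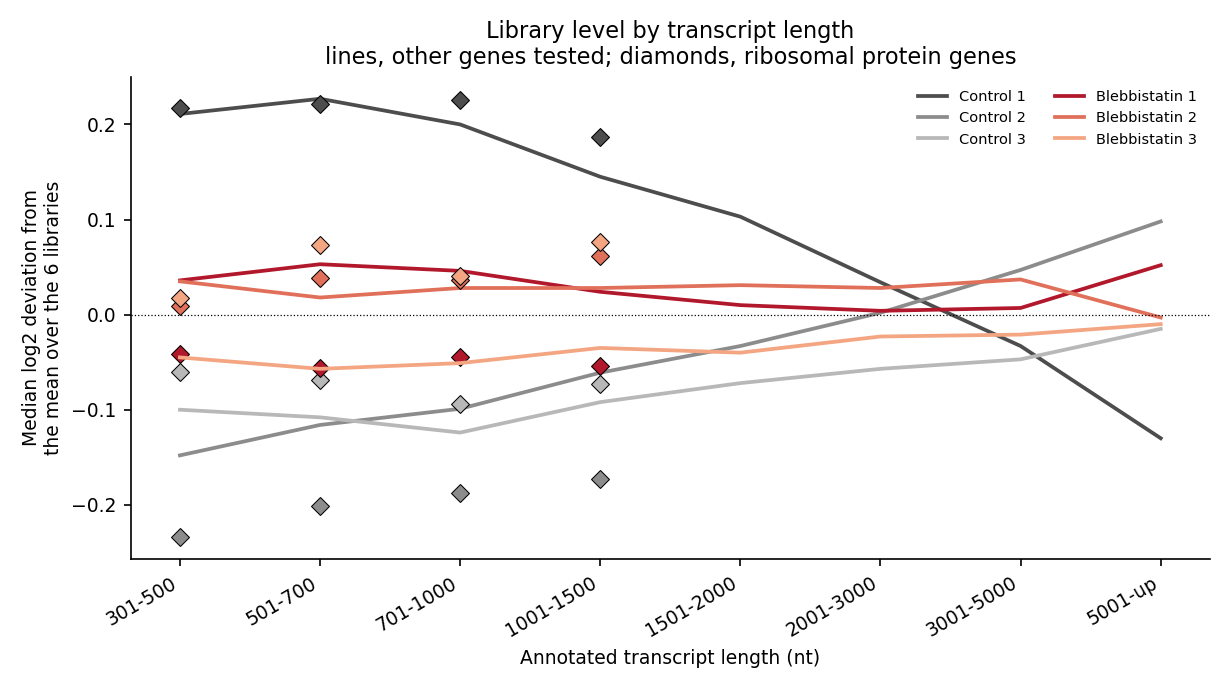
Median log2 deviation of each library from the mean of the 6 libraries (vertical axis) by annotated transcript length (horizontal axis); lines are other genes tested and diamonds the ribosomal protein genes, in bins with at least 10 of them. Short genes are high in Control 1 and low in Control 2 among members and other genes, with the members of Control 2 below the line.

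Of the 7 copies of core genes, 4 passed the filter and none passed the test, while 0.0780% of all genes tested did. Rpl22l1, which can replace Rpl22 in the ribosome, was at 359, 319 and 332 FPKM in controls and at 335, 345 and 394 FPKM under blebbistatin, above Rpl22 in every library: it stood at 114%, 116% and 119% of Rpl22 in controls and at 138%, 115% and 121% under blebbistatin. Rps27l, a p53 target close to Rps27, was at 207, 177 and 148 FPKM in controls and at 184, 196 and 175 FPKM under blebbistatin, which was 4.73% to 6.14% of Rps27 and Rps27rt together. Rpl7l1, a relative of Rpl7, was at 1.94% to 2.41% of Rpl7, and Rps4l at 1.01% to 1.74% of Rps4x.

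The ratio of copy to core was compared for 4 pairs, in a test of 3 libraries against 3 that cannot give a p under 0.1. The log2 ratio of Rpl22l1 to Rpl22 was higher by 0.10 under blebbistatin (SD 0.10, two-sided exact permutation p = 0.3). That of Rps4l to Rps4x was lower, at -0.22 (SD 0.27, exact permutation p = 0.4), and that of Rpl7l1 to Rpl7 at -0.08 (SD 0.12, exact permutation p = 0.5). For Rps27l against the sum of Rps27 and Rps27rt it was -0.06 (SD 0.15, exact permutation p = 0.8), while against Rps27 alone it was 1.75 (SD 1.12, exact permutation p = 0.3), a difference larger than the SD. All pairs had a p of 0.5 after adjustment over the 4 pairs with the core gene alone.

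No transcript of a member passed the test, nor did the share of a transcript within its gene. A single transcript in the whole table passed (0.00692% of 14460 tested), and no share did (0% of 4997 tested). At an unadjusted p under 0.05 there was 1 member transcript, of Rps27 (8.08% of all transcripts tested), and no member share (4.56% of all shares tested). Without Control replicate 2, the 346-nt Rps27 transcript (adjusted p = 0.000104) and both Rps27 shares (adjusted p = 0.00353) passed. After Rps27, the shares of smallest p were those of Rpl35a and Rpl34. The 506-nt transcript of Rpl35a made up 12.3%, 12.2% and 10.2% of its gene in controls and 13%, 13.4% and 11.1% under blebbistatin. Rps24 was carried mainly by its 857-nt transcript, at 78.5% ± 0.936 in controls and 78.9% ± 2.43 under blebbistatin (SD, n = 3). Rpl38, which regulates translation of Hox mRNAs in the embryo, used its 285-nt transcript for 25.3%, 48.5% and 29.0% in controls and 31.5%, 44.0% and 34.5% under blebbistatin, with replicate 2 highest in both groups.

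The 3 ribosomal proteins with other symbols followed the members. Fau, made as a fusion with a ubiquitin-like protein, was at 2003, 1388 and 1661 FPKM in controls and at 1690, 1588 and 1618 FPKM under blebbistatin. Gnb2l1, the scaffold RACK1 on the small subunit, was at 2490, 1567 and 1808 FPKM against 2042, 2005 and 2053 FPKM, and Rpl36al at 523, 431 and 442 FPKM against 463, 534 and 486 FPKM. None passed the test, while 0.0780% of all genes tested did, and the log2 fold changes were -0.03, 0.08 and 0.09. Control replicate 2 was lowest in all 3.

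Lists of other genes of ribosome production and translation also gave no calls. None of 41 ribosome assembly factors, 15 genes of RNA polymerase I, 9 chaperones and importins of ribosomal proteins, 46 initiation factors, 76 mitochondrial ribosomal proteins and 18 translation factors with a pyrimidine tract passed the test. Of all genes tested, 0.0780% did. The median log2 fold changes of the lists were 0.019, 0.041, 0.006, 0.046, 0.043 and 0.067 in that order. In the mitochondrial ribosome, which has its own protein set, Mrps18c (40.5 ± 3.89 against 47.3 ± 2.95 FPKM, SD, n = 3) and Mrpl47 (16.5 ± 1.90 against 19.3 ± 0.855 FPKM) had groups that did not overlap, higher in 2 of 76 against 7.48% of all genes tested. Of the initiation factors, 2 of 46 were likewise higher without overlap, Eif1b (37.6 ± 1.48 against 40.3 ± 0.914 FPKM, SD, n = 3) and Eif5a2 (1.34 ± 0.133 against 1.59 ± 0.0868 FPKM). The largest difference of these lists was that of Eif3j1, a subunit of the factor eIF3 (log2 fold change -2.50, SE 1.10, adjusted p = 0.536), whose groups overlapped. Its mean was 17.3 ± 9.27 FPKM in controls and 7.67 ± 13.2 FPKM under blebbistatin (SD, n = 3). The SD under blebbistatin was thus larger than the mean. In the other 4 lists, 0 genes had groups without overlap, against 14.3% of all genes tested.

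Among 18 genes of mTOR and Myc signalling, which drive the transcription and translation of ribosomal protein mRNAs, 0 passed, against 0.0780% of all genes tested. Mycn, a transcription factor of the Myc family, came nearest: its mean was 6.18 ± 1.25 FPKM in controls and 11.8 ± 2.71 FPKM under blebbistatin (SD, n = 3), with groups that did not overlap (log2 fold change 0.83, SE 0.18, adjusted p = 0.139). Myc, the more abundant relative, had a mean of 76.6 ± 7.54 FPKM in controls and 61.2 ± 11.7 FPKM under blebbistatin (log2 fold change -0.33, SE 0.15, adjusted p = 0.546).

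The transcription starts of the members were examined for the shared sequence the family is known for. Whether it bears on the library order of the members was not tested. The RefSeq promoter table for GRCm38.p6 held 63 of the 84 members, 55 of them with a start within 5 nt of the deposited transcript. A run of at least 8 pyrimidines that opens with C within 20 nt of the start, on the sense strand, was present in 30 of 63 (47.6%), in 48.7% of large-subunit and 45.8% of small-subunit members. It was present in 14.3% of other tested genes and in 14.3% of all 27025 promoters of the table. The search rests on the annotated start, and a shorter run or one further away was not counted. A member without a match may therefore still have a tract. The sequences shown are 30 bases from 12 before the start, sense strand, with the run in capitals, for 5 members that have it and, in Rpl26 and Rpl41, 2 that have none there:
Rpl28 (7:4792953-4792982, plus strand): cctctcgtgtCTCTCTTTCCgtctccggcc
Rplp2 (7:141447639-141447668, plus strand): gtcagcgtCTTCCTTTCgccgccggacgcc
Rps6 (4:86857350-86857379, minus strand): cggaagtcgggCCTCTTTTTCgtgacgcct
Rps24 (14:24490666-24490695, plus strand): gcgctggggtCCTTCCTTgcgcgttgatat
Rps27 (3:90213631-90213660, minus strand): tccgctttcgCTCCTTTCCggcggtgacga
Rpl26 (11:68901554-68901583, plus strand): gcggcaacttacagaaccggaagtcgcgtg
Rpl41 (10:128549151-128549180, minus strand): acgggccggctcggaagtgacgacaccgag

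The hexamer CTTTCC, which lies inside the runs of Rpl28 and Rps27 and so overlaps that search, occurred on the sense strand within 30 nt of the start in 15.9% of the members and in 2.6% of other tested genes. On the antisense strand it occurred in 3.2% and 2.3%. CGGAAG, the core of the site for ETS-family factors, occurred on either strand of the 300 bases in 65.1% of the members, in 79.2% of small-subunit and 56.4% of large-subunit members, and in 34.4% of other tested genes. It can be read in the windows of Rps6, Rpl26 and Rpl41 above. These are matches of letters, and binding was not measured here.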

How the data were processed

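RNA of 3 control and 3 blebbistatin libraries of E13 submandibular gland was sequenced after TruSeq RNA preparation from total RNA purified on RNeasy columns, per the labels' protocols. Reads were processed with Bowtie2 2.2.3, TopHat2 2.0.13 and Cufflinks 2.2.1, and the build was mm10, per the submitters' processing notes. The deposited tables give FPKM per gene and per transcript, computed by the authors, per the file headers. Columns abbreviated BB were read as blebbistatin, and columns without a number as replicate 1. FPKM are not counts, so genes with a mean of at least 1 FPKM were put on the log2 scale after adding 1 and tested in limma 3.58.1 under R 4.3.3 (empirical Bayes with a mean-variance trend, no covariate), adjusted by Benjamini-Hochberg over all genes tested with a threshold of 0.05. Transcripts were tested likewise, and shares of transcripts (arcsine square root) in genes with a summed mean of at least 5 FPKM. Copy-to-core ratios had a two-sided exact permutation test. The test was checked on simulated data. Exon coordinates are those of the deposited mm10 annotation, counted from 1, and sequences are from RefSeq (GRCm38.p6) and GENCODE M21.

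Members and gene lists were chosen with earlier results of these data known. Named were, in each subunit, the 6 members of largest absolute fold change, the 4 of smallest p and the 3 of highest mean, all copies, the proteins with other symbols, the 3 genes whose transcript shares had the smallest p, up to 4 genes of smallest p of a described list, and the 5 non-members most correlated with the member mean. A gene of the lists and a marker are not reported here. Other genes named were chosen after their values were seen. Alternatives were another pseudocount, other filters and scalings, array weights, a replicate block, removal of a length trend, and each library left out. Summing the second records, leaving out their 4 members, and rescaling FPKM to an equal sum were added after seeing the data.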

Additional observations from a re-analysis of the deposited data

How the results depend on the processing

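In every alternative but 1, 0 members passed the threshold. Leaving out each library in turn gave 0 to 1 small-subunit members, 0 to 1 member transcripts and 0 to 2 transcript shares, all of Rps27 and all without Control replicate 2. The number of genes called over the whole table was less steady: 9 as reported, 12 with a pseudocount of 0.1, 1 without a filter, 27 at a minimum of 5 FPKM, 14 after quantile normalization, 2 after median-of-ratios rescaling, 57 with array weights, 19 with the length trend removed, 10 after rescaling to an equal sum, and 1 to 19 with a library left out. The cause was not tested.

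With the replicate number as a block, 144 genes passed and 0 members did, and Mycn passed (log2 fold change 0.83, adjusted p = 0.0183). Same-numbered control and blebbistatin libraries had deviations with Pearson correlations of 0.18, 0.09 and 0.25, against -0.25 to 0.08 for differently numbered ones. All 6 of 6 libraries correlated best with their own number, a hint from the data and not from the design. For Blebbistatin replicate 2 the margin was small, at 0.09 with Control replicate 2 and 0.08 with Control replicate 1.

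Of the alternative values for the genes named, 635 kept their sign and side of the threshold, 52 changed sign and 2 newly passed. Of the sums of second records, those of Rps27 (0.13), Rpl26 (0.083) and Rpl34 (0.04) had the opposite sign to the member alone, as did the log2 ratio of Rps27l to Rps27 (-0.057), since the second record then holds most of the FPKM. Under quantile normalization the sign changed for Rps12 (-0.044), Rplp2 (-0.037), Rpl23a (-0.008) and Rps3 (-0.008). With array weights it changed for Rplp1 (0.081), Rps26 (0.087) and Fau (0.014). Rplp2 was at -0.007 after rescaling to an equal sum and at -0.004 with the length trend removed.

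With a library left out, the log2 fold change crossed 0 for 26 genes: Rpl34 (-0.41 to 0.12), Rpl9 (-0.027 to 0.27), Rplp1 (-0.16 to 0.18), Rpl41 (-0.072 to 0.28), Rpl32 (-0.012 to 0.16), Rps4l (-0.24 to 0.047), Rps28 (-0.29 to 0.021), Rps15a (-0.041 to 0.23), Rps12 (-0.049 to 0.13), Rps18 (-0.12 to 0.20), Rps26 (-0.067 to 0.11), Rpl7l1 (-0.053 to 0.087), Rps27l (-0.05 to 0.19), Fau (-0.16 to 0.10), Gnb2l1 (-0.062 to 0.27), Rpl35a (-0.016 to 0.17), Rplp0 (-0.12 to 0.22), Rplp2 (-0.071 to 0.11), Rpl11 (-0.074 to 0.15), Rpl17 (-0.007 to 0.19), Rpl23a (-0.003 to 0.16), Rps14 (-0.16 to 0.31), Rps3 (-0.078 to 0.23), Rps2 (-0.061 to 0.23), Rpl34-ps1 (-0.006 to 0.14) and Gm15772 (-0.005 to 0.21). Of the 40 crossings, 23 came without Control replicate 1 or 2. Depth is given in the files only through FPKM, so no counting interval was computed.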
